A study of Ovis aries and Mus musculus with 10 samples.

Results

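The 8 mouse microRNA (miRNA) names mmu-miR-494, mmu-miR-1224, mmu-miR-125a-3p, mmu-miR-801, mmu-miR-709, mmu-miR-689, mmu-miR-188-5p and mmu-miR-671-5p, written below without the mouse prefix, are described here on arrays of mammary gland RNA from ewes and mice. They were found by their exact names among the non-control spots, which gave all 8 of the 567 mouse miRNAs on the array. They had been picked for a high signal in the sheep gland at gestation days 14 and 64, or because the named RNA may be a fragment of another RNA, so their sheep values at those days are given as a description with no test. All 8 were among the 213 miRNAs detected on at least 3 of the 10 arrays.

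The study followed the adult gland with 1 array of total RNA per stage. Ewes were sampled on day 15 of the cycle, on days 14, 64 and 125 of gestation and on day 60 of lactation. Mice, labelled CD1 (an outbred strain), were sampled as virgins, on days 10 and 17 of gestation and on days 2 and 10 of lactation. No treatment was given, the RNA was whole mammary tissue, and neither the sheep breed nor the number of animals behind an array is given in the sources used here, so spread between arrays includes day, animal and array alike.

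An miRNA is a short RNA cut from a hairpin precursor that guides Argonaute proteins to messenger RNAs and lowers their stability or translation. Array probes for such short targets hybridise to any labelled RNA with a matching 3' end, so fragments of small nuclear, transfer or ribosomal RNAs can be read under a miRNA's name. Probes of this array were designed on mouse sequences, and sheep RNA was hybridised to the same probes. miR-801 is the clearest case of a name with another origin: its sequence belongs to the U11 small nuclear RNA of the minor spliceosome, and it was later withdrawn from the miRNA registry. miR-1224 is a mirtron, an miRNA made from a whole short intron by splicing in place of the Drosha cut. miR-494 lies in the large imprinted Dlk1-Dio3 cluster of placental mammals, miR-188-5p in a cluster within an intron of the chloride channel gene Clcn5 on the X chromosome, and miR-125a-3p is the passenger arm of the miR-125a hairpin, beside miR-99b and let-7e. miR-671-5p is known for directing the cleavage of the circular RNA antisense to CDR1, and miR-709 is a mouse miRNA known in the nucleus, where it acts on the miR-15a/16-1 precursor.

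The 8 names were read by 24 probes, 2 or 4 for each, and by 17 to 20 spots per name on each array after outlier spots were left out. By the array design's mouse coordinates (build mm9), the longest probe targets lay at chr12:110953584-110953598 for miR-494, chr16:20604534-20604545 for miR-1224 and chr17:17967825-17967840 for miR-125a-3p. Those of miR-801, miR-709 and miR-689 lay at chr4:131826064-131826078, chr8:86610073-86610084 and chr1:169270598-169270610. Those of miR-188-5p and miR-671-5p lay at chrX:6825157-6825169 and chr5:24097960-24097972. Each interval is the part of the named mature RNA that the probe pairs with; no other annotation of these positions was used here. The targets were short: single probes paired with 9 to 16 bases, and the mean per member had a median of 12 bases, against a median of 17.5 bases over the 559 miRNAs of the array with a stated length.

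Signals are given as the log2 of the processed intensity divided by the array's 75th percentile over the 94 miRNAs detected on all 10 arrays, so that 0 is that percentile. Values under -5.11 were set to that floor and have no order below it. That percentile was 1998, 1831, 1561, 939 and 788 intensity units on the sheep arrays from cycle to lactation, and 246 to 937 units on the mouse arrays. No spot was saturated. The standard error over spots was at most 0.12 on the log2 scale for values of the 8 names above the floor, and was not computed at the floor. This leaves the number of arrays as the limit on precision. As a check of the tissue label, 6 miRNAs of epithelial cells (miR-205 and the miR-200 family) were all detected on every array.

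In the sheep gland 7 of the 8 names had their highest signal at gestation day 64, and 6 of the 8 lay higher at both days 14 and 64 than on each of the other 3 sheep arrays. miR-689 was the exception, at the floor on all 5 sheep arrays, so this scale shows no course for it. Before scaling it was also highest at day 64 (28.9 units). There 18 of 18 spots were well above background, against 0 on each other sheep array. Over all 213 miRNAs tested, 23% were highest at day 64 and 13.6% lay higher at both days; since the members were picked on these arrays, nothing is read from the gap. The median difference between days 14 and 64 and the other sheep arrays was 1.77 for the 8 names and 0 over all miRNAs tested. Each of the 24 probes taken alone, without scaling, was brightest at day 64 and second at day 14 among the sheep arrays. Without scaling, 27.7% of all miRNAs tested were highest at day 64, and the share over all single probes was not counted. Probes of the same name are not independent, and the names were picked on these arrays, so nothing is read from this count either.

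**Figure D1:**
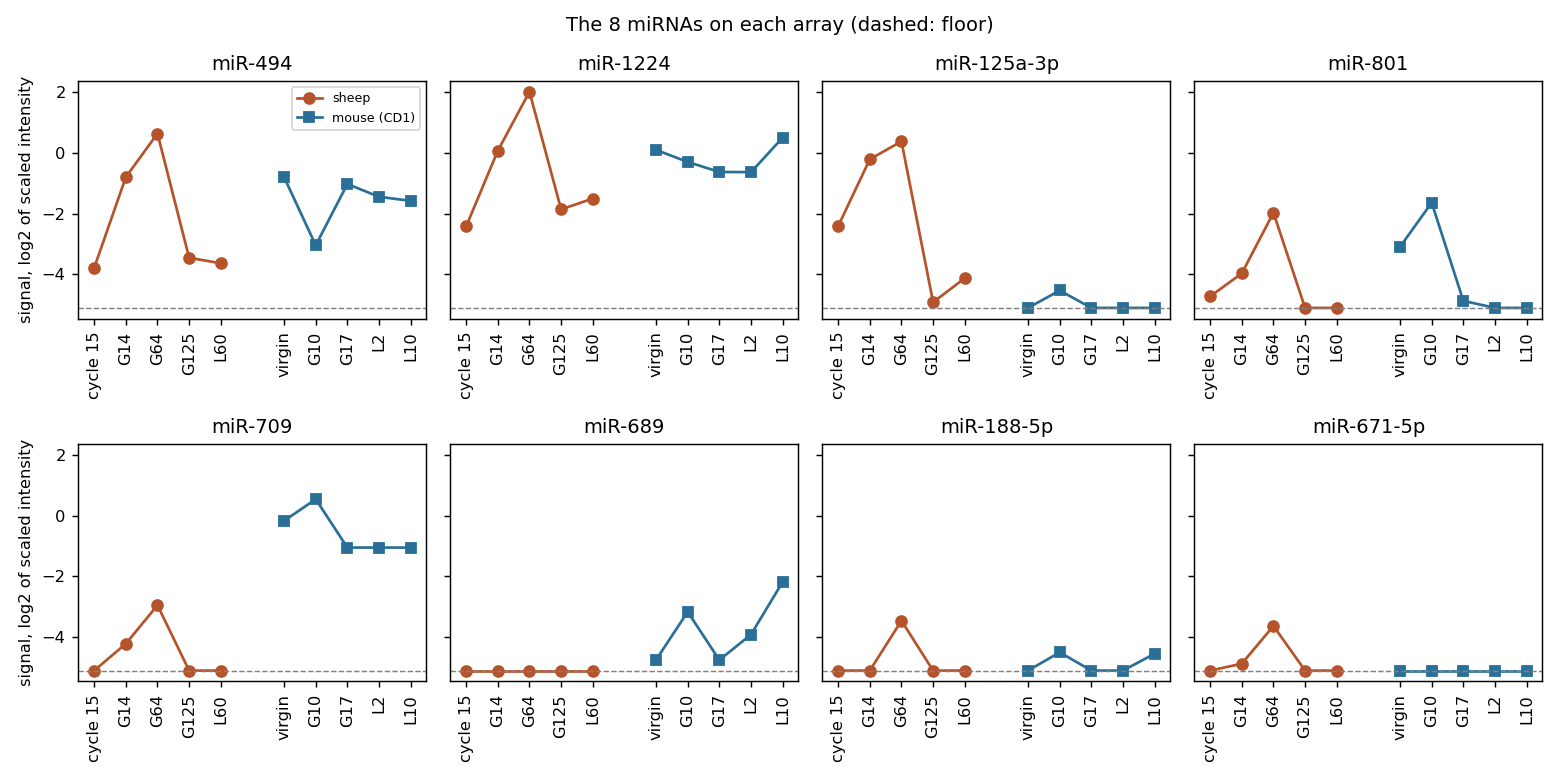
The log2 scaled intensity of each of the 8 names (vertical axis, shared) on the 5 sheep arrays (circles) and the 5 mouse arrays (squares), in order of stage (G, gestation day; L, lactation day), with the floor of -5.11 dashed. Each point is 1 array; sheep gestation day 64 is the highest sheep point in 7 panels, and miR-689 stays at the floor in sheep.

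miR-494 had log2 values of -3.79 in cycle, -0.80 at gestation day 14, 0.64 at day 64, -3.46 at day 125 and -3.64 at lactation day 60 in the ewes. Days 14 and 64 stood apart from the other 3 arrays, whose range was -3.79 to -3.46. Without scaling, its intensity at day 64 was 2428 units, which was 16.8 times that of the cycle array (145 units) and 28.4 times that of day 125 (85.6 units).

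The mirtron miR-1224 had log2 values of -2.42, 0.07, 2.01, -1.86 and -1.51 on the same arrays in the same order. It was well above background on all 5, and days 14 and 64 did not overlap with the rest. Its unscaled intensity reached 6299 units at day 64, which was 16.9 times that in cycle and 24.4 times that at day 125.

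The passenger arm miR-125a-3p had log2 values of -2.41, -0.21, 0.38, -4.92 and -4.13. It differed from miR-494 and miR-1224 in that its cycle value lay between days 14 and 64 on the one side and day 125 and lactation on the other. Among the names well above background at both days 64 and 125 (with miR-494 and miR-1224), its step was the widest: 2031 against 31.0 units unscaled, 65.6 times. Its day 14 and day 64 values were also the closest to each other of the 7 that peaked, 0.59 apart.

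miR-801, the U11 fragment, had log2 values of -4.73 in cycle, -3.97 at day 14 and -1.97 at day 64, and lay at the floor at day 125 and in lactation. Day 64 lay 2.00 above day 14. miR-709 was at the floor in cycle, at day 125 and in lactation, with -4.22 at day 14 and -2.95 at day 64.

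The remaining members were dim in the sheep. miR-671-5p left the floor at days 14 (-4.88) and 64 (-3.64) only. miR-188-5p left it only at day 64 (-3.46), at 141 units before scaling, with a cycle value not well above background. At day 14 miR-188-5p gave 46.6 units, under the floor but with 20 of 20 spots well above background. miR-689 gave 28.9 units at day 64 and 12.2 or less on the other sheep arrays, all under the floor.

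Ranked by the difference between days 14 and 64 and the other 3 sheep arrays, miR-125a-3p (3.91), miR-494 (3.55), miR-1224 (2.97) and miR-801 (2.01) held the first 4 places of 213. miR-709 (1.52) ranked 9, miR-671-5p (0.85) 22 and miR-188-5p (0.82) 23, and miR-689, at the floor throughout, had a difference of 0.00. Over the sheep arrays in stage order, 7, 7, 8, 4 and 4 of the 8 names were detected, beside 198, 206, 208, 156 and 156 of all miRNAs. Detection over the whole array was thus also highest at days 64 and 14, and the percentile given above was lower at day 125 and in lactation than on the other 3 arrays; the part of either in the course was not tested. Summed leukocyte miRNAs (5 of 5 detected at days 14 and 64) were at 0.17 on the log2 scale at day 14 and at -0.17 at day 64. The other sheep arrays ran from -1.66 to -0.12, so day 14 lay above them and day 64 within their range. Summed epithelial miRNAs ran from 1.95 to 2.25 at days 14 and 64 and from 2.40 to 3.53 on the other sheep arrays. Striated muscle miRNAs summed to -3.05 at day 14 and -2.88 at day 64, with 4 of 4 and 3 of 4 detected. Of these, miR-133b was above the floor at both days, with a mean of -4.61, while miR-1 and miR-133a stayed at the floor. On the other sheep arrays all 4 lay at the floor (-3.11 summed), with 3 detected in cycle, 0 at day 125 and 2 in lactation. Red cell (-2.11 to -2.05, against -2.29 to -0.58), fibroblast and smooth muscle (1.44 to 1.47, against -0.25 to 1.59) and endothelial sums (0.58 to 0.97, against 0.20 to 1.37) lay within the range of the other sheep arrays. The part of any of these in the course was not tested. In tissue RNA, fewer cells of a type and less RNA per cell cannot be told apart.

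The array carries control features named hur and mr, whose targets are not given in the sources used here. Of 6 such features, hur_5 was not detected on any array, and none of the other 5 was highest at sheep gestation day 64. On the sheep arrays in stage order, hur_1 had log2 values of 6.36, 6.46, 6.65, 7.06 and 6.38, and hur_2 had 7.23, 7.12, 7.53, 7.94 and 7.10. Both were highest at day 125 on this scale, with ranges of 0.70 and 0.83 over the 5 arrays, and highest in cycle without scaling.

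hur_4 and hur_6 ran against the 8 names. hur_4 had 1.88, 1.43, 0.07, 2.66 and 2.09, and hur_6 had 3.90, 3.32, 2.81, 4.68 and 4.24. Both were lowest at day 64, where the members were highest, also without scaling, with the percentile over all miRNAs and with the normexp background correction. mr_1 had 2.06, 1.17, 2.04, 2.85 and 0.20, with its lowest value in lactation.

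The difference between days 14 and 64 and the other sheep arrays was -1.46 for hur_4 and -1.21 for hur_6, and -0.04 for hur_1, -0.10 for hur_2 and -0.10 for mr_1. Without scaling the last 3 turned positive (0.53, 0.47 and 0.47), while hur_4 (-0.89) and hur_6 (-0.64) stayed negative; the median of all miRNAs tested moved by 0.39 under that setting. The 8 names kept a positive median under each alternative scaling between arrays run on the spot intensities, 1.66 to 3.15. With the normexp background correction, also used above for the control features, their median stayed positive but came close to no difference. It was also lower than reported with the authors' values, and when each name was read by its brightest probe. These lower medians are given with the other settings in the section on processing below. Centred on the mean of each species, the root mean square difference of a control feature from the median profile of the 8 names over the 10 arrays was at least 0.86, for hur_2, against 0.85 for a flat line.

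**Figure D2:**
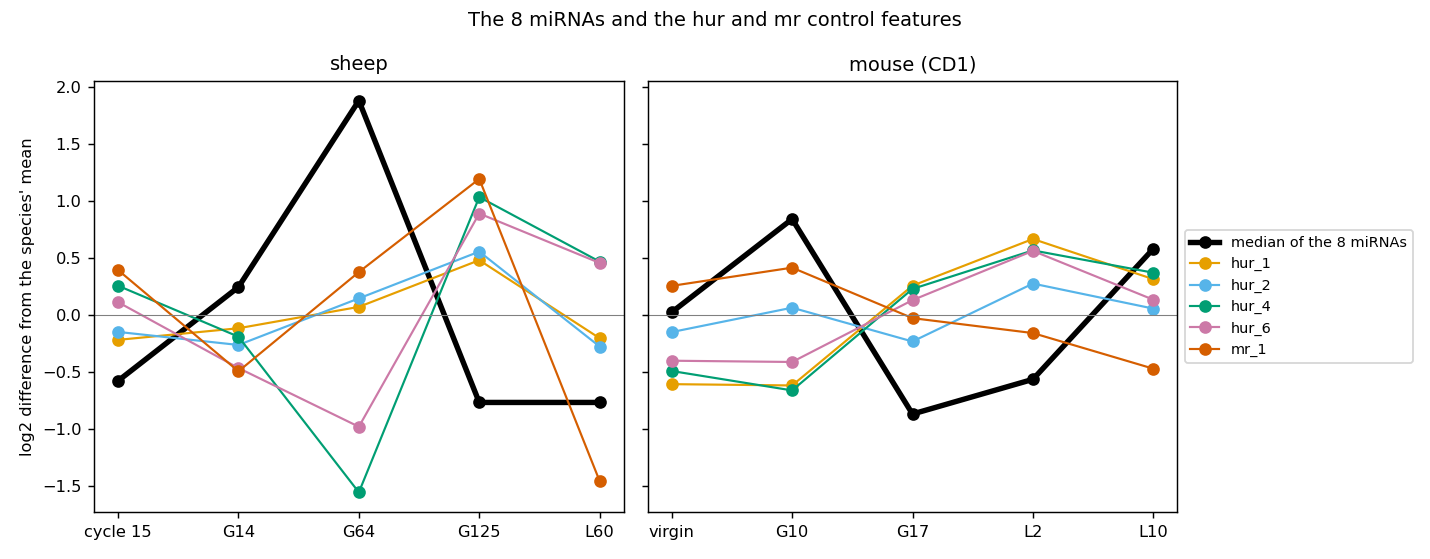
The median of the 8 names (thick black line) and 5 hur and mr control features (thin lines) on the sheep arrays (left) and mouse arrays (right), as the log2 difference from each profile's mean within the species. At sheep gestation day 64 (G64) the members' median is at its highest and hur_4 and hur_6 are at their lowest.

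The distance between probes for the same name varied within and between the species. For miR-494 the probe with the 15-base target had log2 differences of -1.36 to -1.12 from the 14-base one on the sheep arrays and of -1.42 to -1.25 on the mouse arrays. For miR-1224 the 12-base probe exceeded the 11-base one by 0.65 to 1.14 in sheep and by 0.75 to 0.90 in mouse, and the 10-base one by 2.60 to 3.71 in sheep and by 2.52 to 3.13 in mouse. The sign of these differences was the same on every array of both species.

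miR-801 did not. On the 3 sheep arrays where both probes were well above background, the 15-base probe had differences of -1.40 to -1.18 from the 14-base probe, for instance 243 against 553 units at gestation day 64. On the mouse gestation day 10 array the order was turned, with 422 units for the 15-base probe against 29.1 units for the 14-base probe, a difference of 3.86. In the virgin mouse the values were 134 and 5.38 units, the second not well above background. The probe order of miR-801 thus differed between the species.

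The 4 probes of miR-125a-3p, with targets of 13 to 16 bases, lay within 0.28 of the 16-base one on all 5 sheep arrays (1926 to 2181 units at gestation day 64). On the mouse arrays the 16-base probe alone was well above background, and only at gestation day 10 and in the virgin. It gave 107 units at gestation day 10, against 2.38 to 5.98 units for the other 3, and 30.9 units in the virgin. At gestation day 17 it gave 21.0 units, not well above background. The mean over probes of miR-125a-3p in the mouse therefore rests on 1 probe. The miR-709 pair was 2.10 to 2.50 apart on 2 sheep arrays and 2.91 to 3.81 apart on 4 mouse arrays, and the miR-689 pair 0.12 apart on 1 sheep array and 1.44 to 1.54 apart on 2 mouse arrays.

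**Figure D3:**
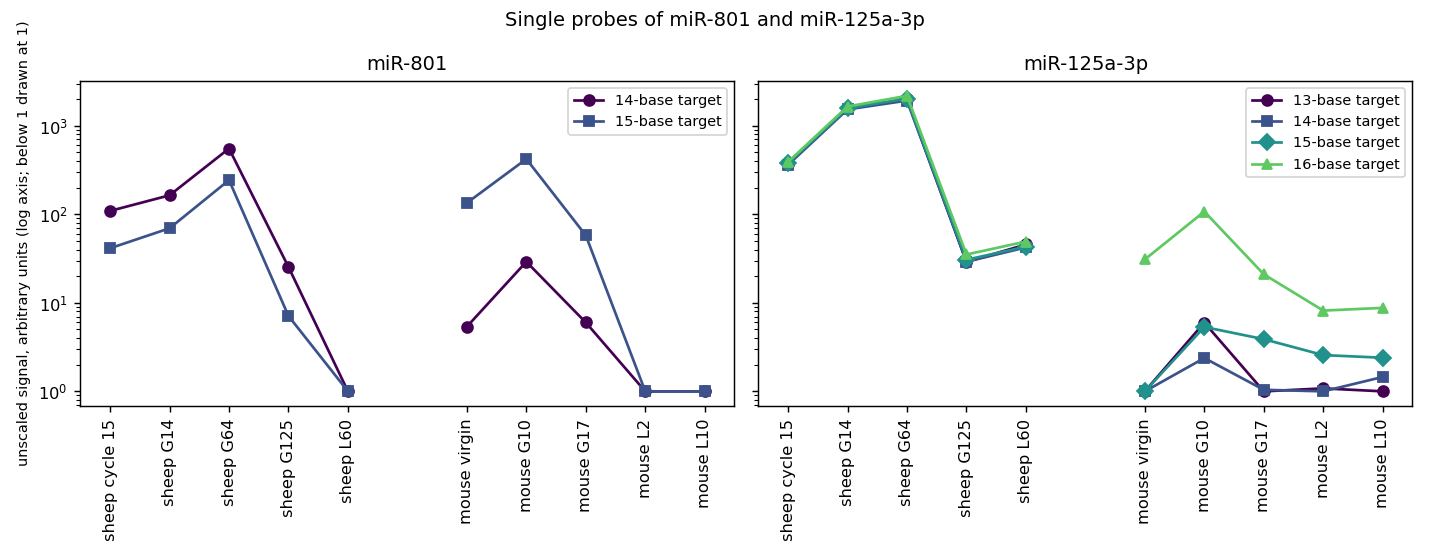
Unscaled signal (log axis, arbitrary units; values under 1 drawn at 1) of each probe of miR-801 (left) and miR-125a-3p (right) on the 10 arrays, by the length of the probe's target. The 14-base probe of miR-801 is the brighter one in sheep and the 15-base probe in mouse, and in mouse only the 16-base probe of miR-125a-3p rises above the others.

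All 8 names had a mean target length of 14.5 bases or less, as did 28.1% of the array's miRNAs with a stated length; this limit was set at the members' longest after the values were seen. Among the other miRNAs tested, 7 of 27 with targets up to that length (25.9%) lay higher at both days 14 and 64 than on the other sheep arrays, and 16 of 175 with longer targets (9.14%) did. Highest at day 64 were 10 of the 27 (37%) and 31 of the 175 (17.7%). At the floor on all 5 sheep arrays, where no course could show, were 10 of the 27 and 53 of the 175. The part of target length in the course was not tested.

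**Figure D4:**
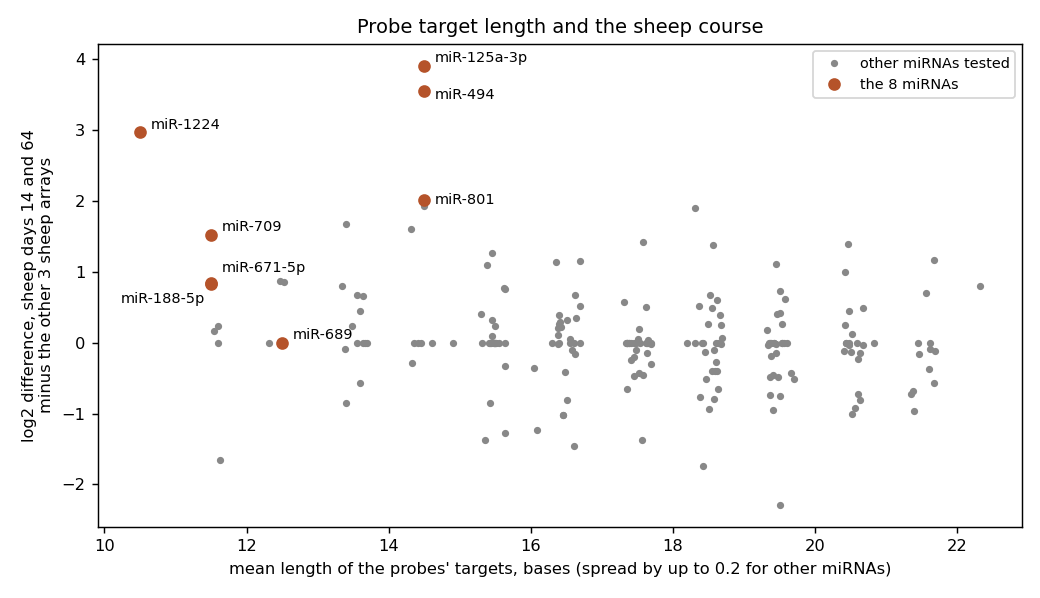
The log2 difference between sheep gestation days 14 and 64 and the other 3 sheep arrays (vertical axis) against the mean length of a miRNA's probe targets in bases (horizontal axis), for the 8 names (large points, labelled) and the other miRNAs tested (small points, spread sideways). The 4 highest points are members, all with targets of 14.5 bases or less.

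Most listed neighbours of the members on the genome either never left the floor in the sheep or had a course unlike that of the members. miR-125a-5p, the main arm of the hairpin that also gives miR-125a-3p, had log2 values of -3.18, -3.43, -3.43, -3.97 and -3.94 on the sheep arrays in stage order, highest in cycle. Of the 3 miR-125a neighbours tested, 1 lay higher at both days and was highest at day 64, miR-99b (-4.84 and -4.63, against -4.93 in cycle and the floor on the other arrays); the shares over all miRNAs tested were 13.6% and 23%. Of 5 tested miRNAs of the miR-188 cluster, 4 were at the floor on all sheep arrays, and miR-532-5p was highest at day 64 (-3.96, against -4.09 at day 125). The Dlk1-Dio3 list used here had 13 tested miRNAs beside miR-494. Of these 13, 6 never left the floor in the sheep, 0 lay higher at both days and 0 were highest at day 64. On this list, miR-127 was at -2.28 at day 14 and -3.52 at day 64, against -2.27 in cycle. These counts hold for the list only, which does not name every tested miRNA of that chromosome. miR-341, on chromosome 12 like miR-494, was tested but not listed. Among the sheep arrays miR-341 lay higher at both days and was highest at day 64. The other arm of miR-671 was detected on no array.

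The run of mouse names from miR-680 to miR-721, which holds miR-689 and miR-709, had 6 other names tested. Of these, 0 lay higher at both days (13.6% of all), 3 were highest at day 64 (23% of all), 1 was lower at both days and 2 were at the floor on all sheep arrays. The 5 miRNAs most like the members' median profile over the 10 arrays were miR-341 (root mean square difference 0.47, at the floor on 8 arrays), miR-140* (0.51), miR-29a (0.54), miR-320 (0.55) and miR-296-5p (0.57), against a median of 0.89 over the 205 other miRNAs compared.

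The mouse arrays had no part in the choice of the names. Centred on the mouse mean, the median of the 8 names was highest at gestation day 10 (0.84), where miR-801, miR-709, miR-125a-3p and miR-188-5p each had their highest mouse value. miR-494 had log2 values of -0.80, -3.05, -1.03, -1.45 and -1.58 from the virgin to lactation day 10. It was lowest at gestation day 10. miR-1224 stayed within -0.63 to 0.50 over the 5 arrays, with its highest value at lactation day 10.

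miR-801 had -3.10 in the virgin, -1.64 at gestation day 10 and -4.88 at day 17, and lay at the floor on both lactation arrays. miR-709 had -0.17, 0.54, -1.05, -1.05 and -1.05 in stage order, and miR-689 had -4.75, -3.17, -4.76, -3.92 and -2.19. For miR-801 and miR-709 the virgin and gestation day 10 arrays lay above the other 3 mouse arrays. Those 2 arrays were on a slide of their own, scanned apart, and 17.4% of all miRNAs tested showed the same order, so slide and stage cannot be told apart for this pair of names.

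miR-125a-3p left the floor at gestation day 10 (-4.54) alone, miR-188-5p at gestation day 10 (-4.51) and lactation day 10 (-4.55), and miR-671-5p on no mouse array. Between single mouse arrays, each with no replicate, miR-801 (1.46) and miR-689 (1.58) were 2-fold or more higher at gestation day 10 than in the virgin, as were 2.82% of all miRNAs tested. miR-494 was 2-fold or more lower (-2.25), as were 3.76%.

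At gestation day 17 against day 10, across the slides, miR-494 was higher by 2.02 (8.45% of all were 2-fold or more higher), and miR-801 (-3.24), miR-709 (-1.59) and miR-689 (-1.59) were lower (6.1% of all). None of the 8 differed 2-fold or more between lactation day 2 and gestation day 17, where 4.23% of all were higher and 6.57% lower. At lactation day 10 against day 2, miR-1224 (1.14) and miR-689 (1.73) were higher, as were 4.23% of all, and 0 of the 8 were 2-fold or more lower, against 2.82% of all.

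Mouse lactation was then tested against mouse gestation, with 2 arrays of different days in each group. None of the 8 names passed an adjusted p of 0.05 in limma's moderated test, nor did any of the 213 miRNAs (0%), with 19 of 213 (8.92%) under an unadjusted p of 0.05. The lactation arrays averaged -1.51 ± 0.09 for miR-494 and the gestation arrays -2.04 ± 1.43 (SD, n = 2 each), a difference of 0.52 ± 0.93 (SE; limma, adjusted p = 0.998). The gestation days lay farther apart than the stages.

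miR-801 was at the floor on both lactation arrays and above it on both gestation arrays. The difference was -1.85 ± 1.49 (SE; limma, adjusted p = 0.698), carried by gestation day 10 (-1.64), with day 17 (-4.88) near the floor. The groups did not overlap, which was so for 41.3% of all miRNAs tested. Within the slide that holds gestation day 17 and both lactation arrays, the miR-801 difference was -0.23 (limma, adjusted p = 0.0259). The lone gestation array is there assumed to vary like the lactation arrays, whose spread is 0 because both are at the floor, so this p carries no weight. Without gestation day 17, it was -3.47, miR-709 was -1.60 and miR-125a-3p -0.57, all with an adjusted p under 0.05 in limma (0.00764, 0.00777 and 0.0118). The spread then comes from the 2 lactation arrays alone, which are both at the floor for miR-801 and miR-125a-3p and both at -1.05 for miR-709, so these p-values carry no weight either.

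The sheep arrays were compared with the mouse arrays without sheep gestation days 14 and 64, which left 3 sheep arrays and 5 mouse arrays, with stage class in the model. Outside the days on which the names were picked, 2 of the 8 read lower in the sheep, miR-709 and miR-1224, and 0 read higher. All probes were designed on mouse sequences, and 1 of the 8 names has a sheep RefSeq gene of that name. Less RNA and weaker pairing of sheep RNA with the probes therefore cannot be told apart in this comparison. Over all 213 miRNAs, 17.8% were called in either direction, 9.86% lower and 7.98% higher in sheep (33.3% at an unadjusted p of 0.05), beside which 2 of 8 is a small count. miR-709 was at the floor on all 3 sheep arrays and averaged -0.56 ± 0.72 on the mouse arrays (SD, n = 5), a difference of -4.59 ± 0.44 (SE; limma, adjusted p = 0.00576). Of the 3 sheep arrays 1 read it well above background, but all 3 values lie at the floor, so the size depends on that floor and was -6.42 with the floor 4 times lower. The call was lost with the normexp background correction (-1.66; limma, adjusted p = 0.107) and with the authors' value table (-4.40, adjusted p = 0.109), and held when each array was left out in turn. The groups did not overlap for miR-709, as for 21.1% of all miRNAs tested.

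miR-1224 averaged -1.93 ± 0.46 on the 3 sheep arrays and -0.19 ± 0.49 on the 5 mouse arrays (SD), a difference of -1.72 ± 0.37 (SE; limma, adjusted p = 0.0435). The groups did not overlap, yet the call held only with the floor 4 times lower, without the miRNAs at the floor on every array and without mouse lactation day 2. It was lost under the other alternatives, among them no scaling (-0.68; limma, adjusted p = 0.12), a slide term (-1.45, adjusted p = 0.169) and slide 1 alone (-1.35, adjusted p = 0.322), and when any other of the 8 arrays was left out (adjusted p 0.0959 to 0.144). With sheep gestation days 14 and 64 in the fit the difference was -0.67 (limma, adjusted p = 0.634), and those 2 sheep values lay above the mouse mean.

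miR-494 averaged -3.63 ± 0.17 on the sheep arrays (n = 3) and -1.58 ± 0.88 on the mouse arrays (n = 5), a difference of -2.11 ± 0.58 (limma, adjusted p = 0.0853), which did not pass. It passed within slide 1 alone (-2.26, adjusted p = 0.034) and without mouse gestation day 10 (-2.48, adjusted p = 0.014). At sheep gestation days 14 and 64, left out of this test, its values were -0.80 and 0.64, beside a highest mouse value of -0.80 in the virgin.

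Among the others, miR-125a-3p ran the other way, with -3.82 ± 1.28 in sheep (n = 3) and -4.99 ± 0.26 in mouse (n = 5), a difference of 1.05 ± 0.54 that did not pass (limma, adjusted p = 0.269). miR-689 was not well above background on any of the 3 sheep arrays and was so on all 5 mouse arrays, where it ranged over -4.76 to -2.19, against the floor in sheep, and the difference did not pass (-1.26; limma, adjusted p = 0.274). miR-801 (-1.12), miR-188-5p (-0.21) and miR-671-5p (0.00) did not pass either.

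**Figure D5:**
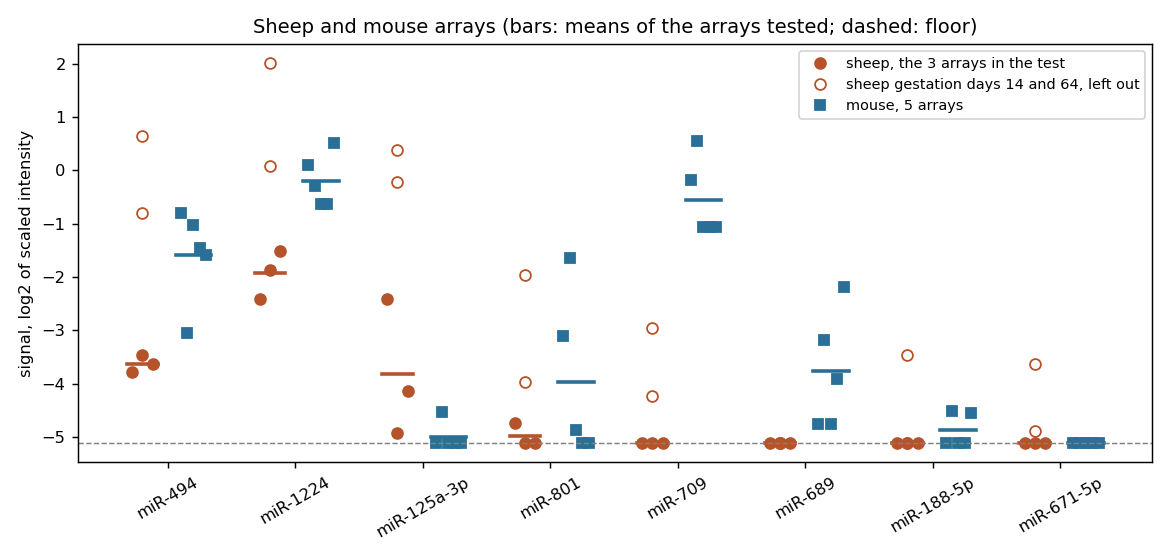
Log2 scaled intensity of each name on the 3 sheep arrays used in the species test (filled circles, left of each pair), on sheep gestation days 14 and 64 (open circles, left out of the test) and on the 5 mouse arrays (squares); short bars are means of the arrays tested and the dashed line is the floor. All 3 filled sheep points of miR-709 are at the floor, below the 5 mouse points.

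The change between the gland that is not pregnant and the lactating gland was compared between the species as an interaction, again without sheep gestation days 14 and 64. None of the 8 names passed, while 13.1% of all miRNAs did, 6.1% with a higher and 7.04% with a lower change in the sheep, and 17.4% had an unadjusted p under 0.05. Of those 28 calls, 26 were of miRNAs at the floor on all 4 replicated mouse arrays, whose spread is 0 by the floor, so the share is no fair background for names above it. miR-125a-3p came nearest: it was lower by 1.72 in ewe lactation than in cycle (a change of -1.72) and at the floor on the virgin and lactation arrays of the mouse, an interaction of -1.72 ± 0.49 (SE; limma, adjusted p = 0.308). miR-1224 changed by 0.92 in the sheep and by -0.16 in the mouse, and miR-689, at the floor in the sheep, by 1.70 in the mouse. The spread in this test came from the 2 gestation and 2 lactation days of the mouse only; without either gestation array, 3 members passed, miR-125a-3p, miR-709 and miR-801 (adjusted p = 0.00509 each in limma), for which the remaining replicated arrays, both of lactation, were at the floor or at the same -1.05 and gave a spread near 0.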

How the data were processed

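Total RNA (100 ng) was labelled with Cy3 and hybridised in 1 colour, 1 array per stage, per the labels' protocols. The deposited spot intensities were background-subtracted and spatially detrended within each array, with no scaling between arrays, by Agilent Feature Extraction 10.5.1.1 per the file headers (the submitters' processing notes name 9.5). The headers give the design on build mm9. The authors' value table holds intensities equal to the scanner files' total gene signal times 1 constant per array (by stage, 0.459, 0.275, 0.335, 1.31 and 1.34 in the ewes and 3.19, 1.49, 0.451, 1.45 and 3.73 in the mice). How the constants were chosen is unknown. The table's column medians, in the same order, were -0.603, 0.303, 0.26, -3.94 and -2.803 and -11.364, -5.227, 0.76, -2.349 and -11.605.

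Outlier spots were left out, processed signals were averaged over spots and then probes, and each array was divided by its 75th percentile over the 94 miRNAs detected on all arrays, floored at 0.029 (the highest of the arrays' 5th percentiles of detected values) and put on the log2 scale. limma 3.58.1 in R 4.3.3 tested the 213 miRNAs detected on at least 3 arrays, with Benjamini-Hochberg adjustment over all of them; the fit was tested on simulated data. Replicates within a stage class are different days, so p-values measure the spread between days as well. The number of arrays, not spots, limits precision. Slide and scan time coincide: 8 arrays were on slide 1 and 2 on slide 2.

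Named were the 8 members, the control features, the members' other arms and cluster neighbours, the names from miR-680 to miR-721 by counts, and the 5 miRNAs nearest in profile; the cluster neighbours given with values were chosen after their values were seen. The members and lists were chosen with earlier results of these data known. Alternatives tried were other scalings, normexp with an offset of 50, the authors' values, the brightest probe, a floor 4 times lower, no filter, other samples in the fit, slide, and leaving out arrays. miRNA and probe sequences were not used here.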

Additional observations from a re-analysis of the deposited data

How the results depend on the processing

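The 8 names kept a positive median difference between days 14 and 64 and the other sheep arrays under all 8 alternatives. It was 1.77 as reported, 3.15 without scaling, 2.49 scaled by the hur and mr features and 2.95 with the floor 4 times lower. The median fell to 1.05 with the brightest probe, 0.83 with the authors' value table and 0.069 with normexp (offset of 50). In order, 7, 7, 7, 4, 3 and 3 of the 8 lay higher at both days under those 6 settings, against 6 as reported. The part of the offset and of the floor in the normexp value was not tested. All 5 hur and mr features used for scaling had negative differences on the scale reported (-0.04 to -1.46). Scaling by them therefore shifts every miRNA upward at days 14 and 64 against the other sheep arrays, before the floor is set.

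For mouse lactation minus gestation, 0 miRNAs were called as reported, 5 without scaling (which moved the median of all by -0.68), 1 with the percentile over all miRNAs, 3 with the brightest probe, 2 with all 10 arrays and 13 with slide as a term or slide 1 alone, each of these last with 1 member. Leaving out 1 array at a time gave 1 to 18 calls and 0 to 3 members, with 18 and 3 without gestation day 17. Differences turned without scaling for miR-1224 (-0.98), miR-494 (-0.86) and miR-689 (-0.47). That of miR-188-5p turned with quantile normalization (0.10), normexp (0.026), the slide settings or without gestation day 10 (0.28 each) and without lactation day 2 (0.26). That of miR-494 turned with the slide settings and without gestation day 10 (-0.49), and that of miR-1224 without lactation day 10 (-0.17). With 1 array left out at a time the 3 differences ran over -0.32 to 0.28 for miR-188-5p, -0.49 to 1.53 for miR-494 and -0.17 to 0.97 for miR-1224. The cause was not tested.

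For sheep minus mouse, 38 miRNAs and 2 members were called as reported. Members called were 1 without scaling, with the percentile over all miRNAs, quantile normalization, hur and mr scaling, the brightest probe, no filter, all 10 arrays and a slide term, 0 with normexp and the authors' table, and 4 with the floor 4 times lower. Calls were 5 with normexp, 1 with the authors' table, 72 with the lower floor, 15 with no filter, 19 with a slide term and 6 on slide 1 alone, and 19 to 34 with 1 or 2 members when an array was left out. The split of 17 higher and 21 lower became 31 and 7 without scaling, which moved the median of all by 0.40, 36 and 18 with the percentile over all miRNAs, and 24 and 15 with quantile normalization. miR-188-5p turned with all 10 arrays (0.047) and miR-801 with a slide term (0.10).

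For the species difference in the change to lactation, the 28 calls became 7 with normexp (1 member, miR-125a-3p, -0.36), 12 with the lower floor and 12 with all 10 arrays. They were 34 to 50 with 0 to 3 members when an array was left out, 50 without either mouse gestation array. Of the 28 calls, 26 were of miRNAs at the floor on all 4 replicated mouse arrays, so their spread of 0 comes from the floor. miR-801 turned without scaling (-0.11). A fit without miRNAs that stayed at the floor throughout, chosen after seeing the data, gave 0, 48 and 22 calls in the 3 tests.

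No paired analysis was possible because replicate numbers name arrays in accession order and pair no samples. With 1 array per stage and day, differences between single arrays have no error, and probes near the floor give bounds only.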
